A study of Rattus norvegicus with 23 samples.

Results

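The genes of prostaglandin synthesis, prostaglandin E receptors and prostaglandin breakdown were followed in rat kidney cells kept at normal or acidic pH. The 10 genes are Pla2g4a, Ptgs1, Ptgs2, Ptges, Ptges2, Ptges3, Ptgis, Ptger2, Ptger4 and Hpgd, and they were taken from the count table by an exact match of the gene symbol. Of these 10 genes, 8 were matched among the 30452 genes of the table, and 6 of the 8 passed the filter on low counts together with 14777 genes in all. Ptger4 and Hpgd were matched but did not pass the filter. Ptges, which encodes the inducible microsomal prostaglandin E synthase, and Ptgis, which encodes prostacyclin synthase, are not analysed here.

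Prostaglandins are short-lived lipid signals. Cytosolic phospholipase A2 frees arachidonic acid from membrane phospholipids, the cyclooxygenases COX-1 and COX-2 turn it into prostaglandin H2, and terminal synthases make the individual prostaglandins from that intermediate. In the kidney, prostaglandin E2 takes part in the control of blood flow, renin release and salt and water handling, and it acts through the receptors EP1 to EP4 until it is oxidised by 15-hydroxyprostaglandin dehydrogenase.

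The study asked how an acidic environment changes gene expression in NRK-52E cells, a rat kidney line labelled as epithelial, and in NRK-49F cells, a rat kidney line labelled as fibroblasts. After 24 h in medium free of serum, both lines were kept for 48 h at pH 7.4 as control or at pH 6.0 (acidosis), set with hydrochloric acid, and poly(A) RNA was sequenced. The 23 samples were 6 of NRK-52E cells at pH 7.4, 6 of NRK-52E cells at pH 6.0, 6 of NRK-49F cells at pH 7.4 and 5 of NRK-49F cells at pH 6.0. The labels also give a sample group, 1 or 3 for NRK-52E cells and 4 or 6 for NRK-49F cells, without saying what it stands for. Each sample group held 3 samples at each pH, except 2 at pH 6.0 in sample group 4. Each line is a single established line, and no label says that the samples of a group came from separate cultures, so the p-values measure the spread between these samples, which may be technical.

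Total counts per sample ranged from 17108547 to 32492245 (median 19131834) in NRK-52E cells at pH 7.4 and from 16657666 to 33690997 (median 17438369) at pH 6.0. For NRK-49F cells the totals were 16412564 to 34250535 (median 24822381) at pH 7.4 and from 16800361 to 31206192 (median 24410964) at pH 6.0. Levels are given as FPM, the cpm of edgeR computed with TMM-scaled library sizes, and changes are read between samples of the same gene. Sums and shares over several genes, and the naming of the most abundant gene, were made without correction for transcript length. A count of 3, taken as the smallest level the depth can show, corresponds to 0.0839 to 0.203 FPM depending on the sample, which covers counting error only.

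Markers of cell types did not all go with the labels. Of 10 epithelial markers, 8 were matched, and Cdh1, Epcam, Cldn4, Cldn7, Esrp1 and Krt18 reached at most 12, 1, 3, 2, 0 and 16 counts in any sample of either line. The most abundant epithelial marker was Krt8, with a mean of 499 FPM in NRK-52E and 839 FPM in NRK-49F cells at pH 7.4, whereas Krt7 was higher in NRK-52E cells (21.8 against 1.42 FPM). These 6 markers were at or near 0 in NRK-52E cells, and the lines are called by their names. Krt18 had at most 1 count in NRK-52E samples although Krt8, its usual partner, was abundant, so its low counts were not read as absence.

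All 10 fibroblast markers were matched, and their sum at pH 7.4 ranged from 4977 to 8160 FPM in NRK-52E and from 10548 to 13486 FPM in NRK-49F cells. Most of the sum in NRK-52E cells was Col3a1, with Dcn and Thy1 at 0 counts, whereas Col1a1 was the most abundant in NRK-49F cells. The NRK-52E sample A021 (pH 7.4) had the highest level of 3 genes that are abundant in NRK-49F cells, with 52.9 FPM of Col1a2, 4.73 FPM of Pdgfra and 2.35 FPM of Lum. The changes of the prostaglandin genes in NRK-52E cells were about as large without this sample, with a log2 fold change of -1.95 for Pla2g4a, -1.30 for Ptgs1, -0.70 for Ptgs2 and 0.85 for Ptges3. All 5 leukocyte and all 5 endothelial markers were matched. The leukocyte markers Ptprc and Adgre1 reached at most 6 and 0 counts, whereas Cd14 had a mean of 81.8 to 109.6 FPM in all 4 groups. Cd68 had a mean of 29.9 FPM in control and 229.5 FPM in acidotic NRK-49F cells. In NRK-52E cells Cd68 (1.90 and 4.15 FPM) and Csf1r (0.872 and 2.09 FPM) were called higher at pH 6.0, also in each sample group alone. The endothelial markers Cdh5 and Kdr reached at most 3 and 0 counts, and the 3 others were called in NRK-52E cells, where Tek had a mean of 14.3 FPM in control and 1.76 FPM in acidotic samples, Pecam1 had 0.0561 and 0.581 FPM, and Vwf had 0.637 and 1.65 FPM.

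The marker sums moved with pH beside the prostaglandin genes. In NRK-52E cells the median sum was 491 FPM in control and 217 FPM in acidotic samples for the epithelial list, 6176 and 2415 FPM for the fibroblast list and 15.05 and 3.94 FPM for the endothelial list, whose fall was that of Tek. Of 9 fibroblast markers tested, 7 were lower and 1 higher. The fall of their sum was mostly that of Col3a1 (mean 6149 and 2402 FPM). Col6a3 rose (0.132 and 1.84 FPM) and passed in sample group 1 alone (log2 fold change 2.77) and sample group 3 alone (4.94). The leukocyte sum of NRK-52E cells was mostly Cd14 and ranged from 83.6 to 106.98 FPM in control samples. At pH 6.0 it lay above all of these in sample group 1 (144.6 to 173 FPM) and below all of them in sample group 3 (60.7 to 81.5 FPM). The median sums in NRK-49F cells were 779 and 593 FPM for the epithelial, 12548 and 7683 FPM for the fibroblast, 4.17 and 6.42 FPM for the endothelial and 133 and 311 FPM for the leukocyte list. The rise of the leukocyte sum in NRK-49F cells was that of Cd68 (mean 29.9 and 229.5 FPM), whereas Cd14 had a mean of 100.5 and 81.8 FPM. Whether the mix of cells changed was not tested.

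The number of these genes that changed with pH is given beside the share of all tested genes. At pH 6.0, 1 of the 6 genes tested was higher in NRK-52E cells (Ptges3) and 3 were lower (Pla2g4a, Ptgs1 and Ptgs2), beside 24.7% of all tested genes that were higher and 36.6% that were lower, or 61.2% in either direction (edgeR quasi-likelihood test, Benjamini-Hochberg adjusted p under 0.05). Ptger2, which is at or near 0 in NRK-52E cells and passed the filter through NRK-49F cells, is among the 6 although its change could not be estimated, which leaves 4 of 5 genes called. In NRK-49F cells, 1 of the 6 genes was lower (Ptgs2) and 0 were higher, beside 14.4% lower and 14.5% higher among all tested genes, or 28.9% in either direction. In NRK-52E cells the tilt to lower genes depended on the fit, since 40.3% of the called genes were higher in the fit of all samples (median log2 fold change -0.12), 48.9% in a fit of that line alone (median 0.00), 48.1% in sample group 1 alone and 47.8% in sample group 3 alone. The count of genes that were higher in NRK-49F cells was also 0 at an unadjusted p under 0.05 in edgeR and 0 in DESeq2. It was 1 (Ptgs1) in a fit of each line alone and 1 in sample group 6 alone, and at an unadjusted p under 0.05 it was 1 with sample group as a block and 1 in sample group 4 alone. The changes differed between the lines for 3 of the 6 genes (Pla2g4a, Ptgs1 and Ptges3), beside 41.4% of all tested genes. In cultures measured in bulk, fewer cells of a kind and less RNA per cell cannot be told apart.

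**Figure D1:**
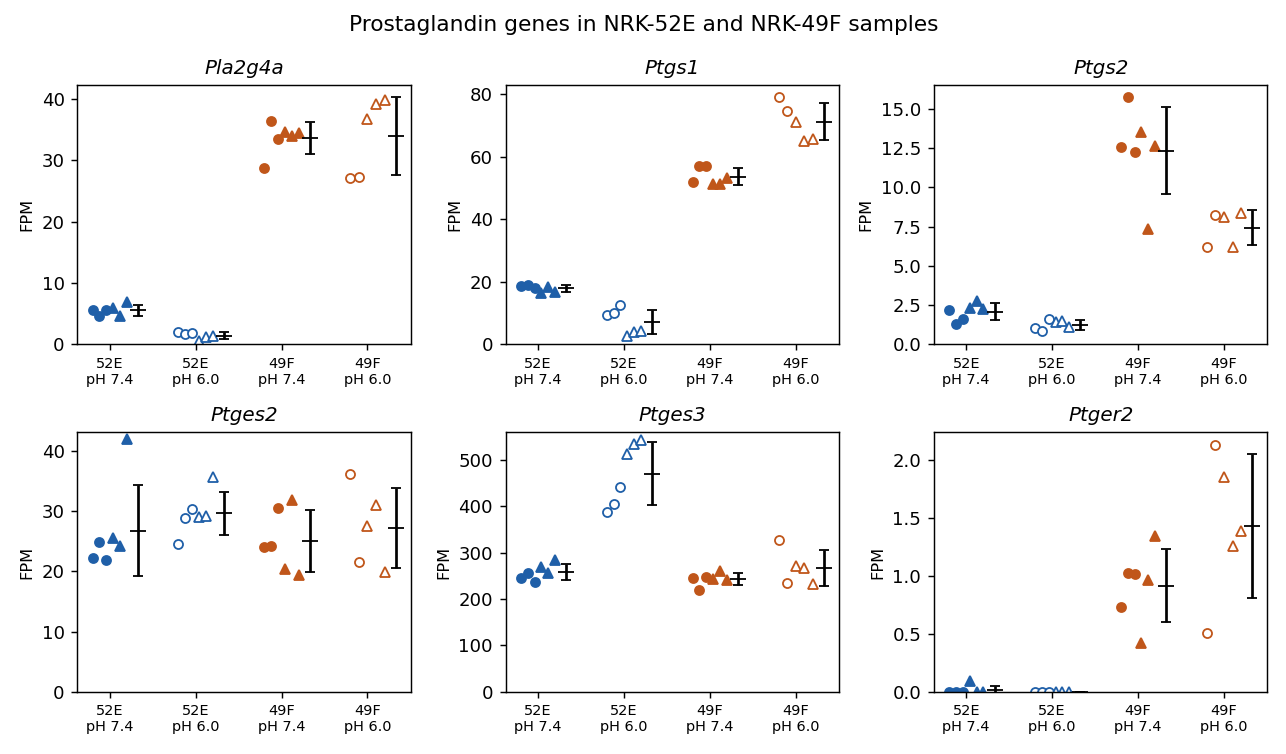
Level in FPM (y axis, from 0) of 6 prostaglandin genes in each sample of NRK-52E (blue) and NRK-49F cells (orange) at pH 7.4 (filled) and pH 6.0 (open), with circles for sample groups 1 and 4, triangles for sample groups 3 and 6, and black marks for the mean and SD of each group. Pla2g4a and Ptgs1 at pH 6.0 lie below every pH 7.4 sample in NRK-52E cells, Ptges3 lies above, and Ptger2 is at or near 0 in NRK-52E cells.

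Pla2g4a encodes the cytosolic phospholipase A2 that starts the pathway (ENSRNOG00000002657, chromosome 13). In NRK-52E cells it ranged from 4.52 to 6.85 FPM with a median of 5.58 FPM at pH 7.4 (84 to 202 counts), and from 0.576 to 1.91 FPM with a median of 1.43 FPM at pH 6.0 (11 to 65 counts). Every acidotic NRK-52E sample was below every control sample. The mean was 5.51 ± 0.863 FPM (SD, n = 6) at pH 7.4 and 1.39 ± 0.513 FPM (SD, n = 6) at pH 6.0, a log2 fold change of -1.96 (SE 0.188, edgeR adjusted p = 3.99e-09). The value was -1.46 in sample group 1 alone and -2.46 in sample group 3 alone, both past the threshold, and the lowest level of all was that of A036 in sample group 3.

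In NRK-49F cells Pla2g4a ranged from 28.7 to 36.3 FPM with a median of 34.2 FPM at pH 7.4. The acidotic samples had 27.1 FPM in A042, 27.3 FPM in A043, 36.6 FPM in A054, 39.2 FPM in A055 and 39.8 FPM in A056. The groups overlapped, and the acidotic samples split by sample group, with both samples of group 4 below and all samples of group 6 above the control median. The mean was 33.6 ± 2.58 FPM (SD, n = 6) and 33.99 ± 6.32 FPM (SD, n = 5), a log2 fold change of 0.02 with a 95% interval from -0.31 to 0.35 (edgeR adjusted p = 0.951). It was -0.27 in sample group 4 alone and 0.15 in sample group 6 alone, neither past the threshold, and its sign changed without A039 (-0.02), A054 (-0.01), A055 (-0.04) or A056 (-0.04). The change of Pla2g4a in NRK-52E minus that in NRK-49F cells was -1.98 on the log2 scale (SE 0.246, edgeR adjusted p = 8.87e-07).

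Ptgs1 encodes COX-1, the cyclooxygenase that many cells make without stimulation (ENSRNOG00000007415, chromosome 3). In NRK-52E cells at pH 7.4 it ranged from 16.3 to 19.0 FPM with a median of 18.1 FPM. At pH 6.0 it ranged from 2.72 to 12.4 FPM with a median of 6.69 FPM. The acidotic samples were all below the control samples, and they lay in 2 separate ranges by sample group, with 9.19, 10.1 and 12.4 FPM in sample group 1 and 2.72, 3.97 and 4.19 FPM in sample group 3. The mean fell, with 17.8 ± 1.07 FPM (SD, n = 6) at pH 7.4 and 7.09 ± 3.97 FPM (SD, n = 6) at pH 6.0, a log2 fold change of -1.31 (SE 0.230, edgeR adjusted p = 2.83e-05).

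Taken alone, sample group 1 gave a log2 fold change of Ptgs1 of -0.72 (edgeR adjusted p = 0.000307) and sample group 3 gave -2.16 (edgeR adjusted p = 8.91e-06), and the adjusted p ranged from 9.93e-08 to 0.00199 over all alternatives of this result. A test of the difference between the sample groups, chosen after seeing these values and fitted on NRK-52E cells alone, gave a change that was lower by 1.41 on the log2 scale in sample group 3 (log2 difference -1.41, SE 0.217, edgeR adjusted p = 0.000799). By the same test, Ptgs1 was the one of 5 prostaglandin genes tested that passed the threshold, beside 16% of 13377 genes. For Pla2g4a the difference was -0.99 (SE 0.359, adjusted p = 0.0746). In NRK-49F cells the corresponding test called 0% of 13659 genes, none of the 6 prostaglandin genes among them, with 381 genes at an unadjusted p under 0.05 and 6 genes called by DESeq2. What distinguishes the sample groups is not given in the labels, and its part in these values was not tested.

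In NRK-49F cells Ptgs1 ranged from 51.4 to 57.1 FPM with a median of 52.4 FPM at pH 7.4. Its acidotic levels were 79.2 FPM in A042, 74.8 FPM in A043, 71.2 FPM in A054, 65.1 FPM in A055 and 65.7 FPM in A056. All 5 acidotic samples were above all 6 control samples. The mean was 53.6 ± 2.71 FPM (SD, n = 6) at pH 7.4 and 71.2 ± 5.99 FPM (SD, n = 5) at pH 6.0. In the fit of all samples the log2 fold change of 0.41 had a 95% interval from -0.05 to 0.87 and did not pass the threshold (edgeR adjusted p = 0.180). That fit uses 1 estimate of the spread for both lines, and the spread of Ptgs1 in acidotic NRK-52E cells was wide. Whether this decided the call was not tested, since a fit of 1 line alone also changes which genes are tested. In a fit of NRK-49F cells alone the log2 fold change was 0.40 and passed (edgeR adjusted p = 0.000732), sample group 6 alone gave 0.36 and passed (0.0281), and sample group 4 alone gave 0.48 and did not pass (0.0716), with a range of 0.000732 to 0.289 over all alternatives. The change of Ptgs1 in NRK-52E minus that in NRK-49F cells was -1.72 on the log2 scale (SE 0.319, edgeR adjusted p = 0.000135).

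Ptgs2 encodes COX-2, the cyclooxygenase that is induced by many stimuli (ENSRNOG00000002525, chromosome 13). It was counted at low depth in NRK-52E cells, with 24 to 79 counts at pH 7.4 and 15 to 55 counts at pH 6.0. Its level ranged from 1.29 to 2.78 FPM with a median of 2.24 FPM at pH 7.4, and from 0.819 to 1.60 FPM with a median of 1.25 FPM at pH 6.0. The groups overlapped, since the control samples A022 (1.29 FPM) and A023 (1.58 FPM) lay within the acidotic range. The mean fell, with 2.07 ± 0.538 FPM (SD, n = 6) at pH 7.4 and 1.24 ± 0.309 FPM (SD, n = 6) at pH 6.0, a log2 fold change of -0.72 (SE 0.214, edgeR adjusted p = 0.00536). Sample group 1 alone gave -0.47 and did not pass (adjusted p = 0.235), and sample group 3 alone gave -0.79 and passed (0.0278), in a range of 0.00185 to 0.235 over all alternatives.

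In NRK-49F cells Ptgs2 ranged from 7.32 to 15.8 FPM with a median of 12.6 FPM at pH 7.4. At pH 6.0 it was 6.22 FPM in A042, 8.23 FPM in A043, 8.09 FPM in A054, 6.21 FPM in A055 and 8.39 FPM in A056. The control sample A052 (7.32 FPM) lay within the acidotic range and the other control samples lay above it. The mean fell, with 12.4 ± 2.78 FPM (SD, n = 6) at pH 7.4 and 7.43 ± 1.11 FPM (SD, n = 5) at pH 6.0, a log2 fold change of -0.73 (SE 0.192, edgeR adjusted p = 0.00552), and without A052 the log2 fold change was -0.85. Sample group 4 alone gave -0.91 (adjusted p = 0.0604) and sample group 6 alone gave -0.57 (0.178), with 2 or 3 samples a group. Neither passed, in a range of 0.000696 to 0.178 over all alternatives. The change of Ptgs2 in NRK-52E minus that in NRK-49F cells was 0.01 with a 95% interval from -0.70 to 0.72, and with 1 sample left out it ranged from -0.09 (without A026) to 0.13 (without A052), so its direction cannot be told.

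Because Ptgs1 and Ptgs2 code for enzymes of the same step, the share of Ptgs2 among the reads of both genes was computed for each sample, with no correction for transcript length. In NRK-49F cells it ranged from 12.5% to 21.7% with a median of 19.4% at pH 7.4. The acidotic shares were 7.28% in A042, 9.92% in A043, 10.2% in A054, 8.70% in A055 and 11.3% in A056. The control and acidotic samples did not overlap, but the nearest samples, A052 at 12.5% (95% exact interval from 10.97% to 14.1%) and A056 at 11.3% (9.67% to 13.1%), had overlapping counting intervals.

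In NRK-52E cells the share of Ptgs2 ranged from 6.37% to 13.2% with a median of 11.2% at pH 7.4. At pH 6.0 it ranged from 7.54% to 34.2% with a median of 15.99%. The control samples split by sample group, with 6.37%, 8.11% and 10.5% in sample group 1 and 11.9%, 12.2% and 13.2% in sample group 3. The acidotic samples of sample group 1 had 7.54%, 9.90% and 11.4%, within the range of all control samples. Of these, A026 (11.4%) lay above the control samples of its own sample group. The acidotic samples of sample group 3 had 20.6%, 27.3% and 34.2%, above every control sample. The highest share, in A036, rested on 27 of 79 reads (95% exact interval from 23.9% to 45.7%).

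Ptges2 and Ptges3 encode 2 of the enzymes named prostaglandin E synthase, and the Ptges3 protein is also known as p23, a co-chaperone of Hsp90. Ptges3 (ENSRNOG00000002642, chromosome 7) ranged from 237 to 285 FPM with a median of 256 FPM in NRK-52E cells at pH 7.4, and from 388 to 543 FPM with a median of 477 FPM at pH 6.0. All acidotic samples were above all control samples. At each pH the samples of sample group 3 were above those of sample group 1. At pH 7.4 the nearest were A022 (255.4 FPM) and A034 (256.1 FPM). The mean rose, with 258 ± 17.2 FPM (SD, n = 6) at pH 7.4 and 470.4 ± 67.5 FPM (SD, n = 6) at pH 6.0, a log2 fold change of 0.87 (SE 0.0932, edgeR adjusted p = 2.56e-08). It was 0.83 in sample group 1 alone and 1.05 in sample group 3 alone, both past the threshold. In the RefSeq table of the assembly GRCr8, 1 pseudogene is named after Ptges3, and since reads that map to several places were counted, the reads of both cannot be told apart.

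In NRK-49F cells Ptges3 ranged from 219 to 259 FPM with a median of 244 FPM at pH 7.4. Its levels at pH 6.0 were 328 FPM in A042, 234 FPM in A043, 271 FPM in A054, 266 FPM in A055 and 232 FPM in A056. The groups overlapped, with A042 the highest. The log2 fold change was 0.14 with a 95% interval from -0.06 to 0.34 (edgeR adjusted p = 0.320), and it was 0.24 in sample group 4 alone and 0.04 in sample group 6 alone. Without A042 it was 0.05. The change in NRK-52E minus that in NRK-49F cells was 0.73 on the log2 scale (SE 0.135, edgeR adjusted p = 0.000125).

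Ptges2 (ENSRNOG00000014050, chromosome 3) ranged from 21.9 to 41.998 FPM with a median of 24.5 FPM in control and from 24.6 to 35.7 FPM with a median of 29.1 FPM in acidotic NRK-52E cells. The groups overlapped, and the control sample A035 stood apart at 41.998 FPM. The log2 fold change was 0.15 with a 95% interval from -0.19 to 0.49 (edgeR adjusted p = 0.447). Without A035 it was 0.32 (adjusted p = 0.0587). Sample group 1 alone, which does not hold A035, gave 0.37 and passed (0.00805), and sample group 3 alone gave 0.12 and did not (0.652), in a range of 0.00805 to 0.668 over all alternatives.

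In NRK-49F cells Ptges2 ranged from 19.5 to 31.9 FPM with a median of 24.2 FPM at pH 7.4. In the acidotic samples A042, A043, A054, A055 and A056 the level was 36.1, 21.6, 27.6, 30.998 and 19.8 FPM. The groups overlapped. The log2 fold change was 0.12 with a 95% interval from -0.24 to 0.48 (edgeR adjusted p = 0.652), and without A042 it was -0.0011.

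**Figure D2:**
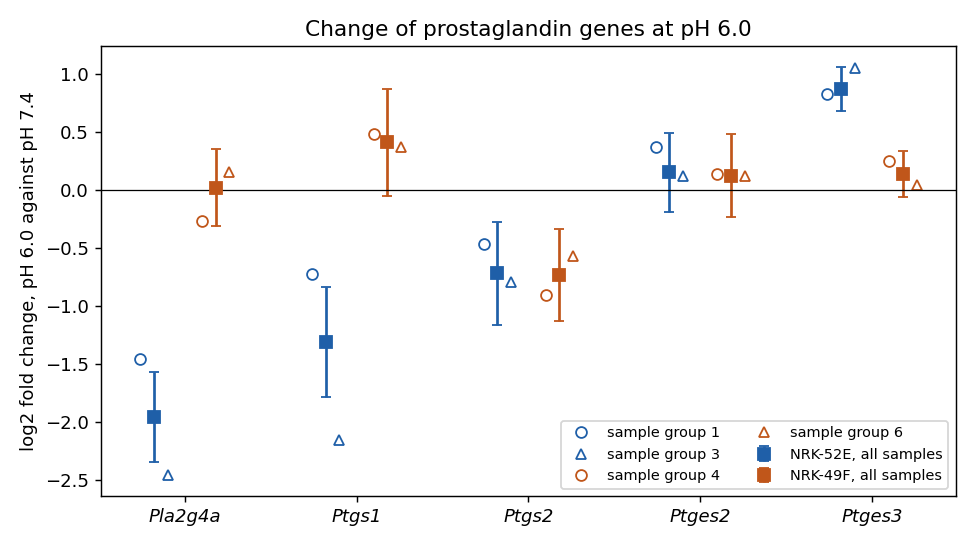
Log2 fold change from pH 7.4 to pH 6.0 (y axis) of 5 prostaglandin genes in NRK-52E (blue) and NRK-49F cells (orange), with squares and bars for the estimate from all samples and its 95% interval, and open symbols for the estimate within each sample group. In NRK-52E cells Pla2g4a (-1.46 and -2.46) and Ptgs1 (-0.72 and -2.16) were lower within both sample groups, and Ptgs2 was below 0 in both lines.

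Ptger2 encodes EP2, a receptor for prostaglandin E2 that raises cyclic AMP (ENSRNOG00000050968, chromosome 15). In NRK-52E cells it had 2 counts in A033 and 0 counts in the other 11 samples, so no change with pH could be estimated. In NRK-49F cells it ranged from 0.417 to 1.35 FPM with a median of 0.990 FPM at pH 7.4 (11 to 29 counts). At pH 6.0 it was 0.510 FPM in A042, 2.13 FPM in A043, 1.85 FPM in A054, 1.26 FPM in A055 and 1.39 FPM in A056. The groups overlapped, and the log2 fold change was 0.65 with a 95% interval from -0.15 to 1.45 (edgeR adjusted p = 0.222), with 0.51 in sample group 4 alone and 0.74 in sample group 6 alone.

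Ptger4 encodes EP4, which also raises cyclic AMP (ENSRNOG00000013240, chromosome 2). It had 0 to 11 counts in NRK-52E and 0 to 10 counts in NRK-49F samples, with a mean of at most 0.220 FPM in any group, and a difference was not detectable at this depth. Hpgd, which encodes the dehydrogenase that inactivates prostaglandins (ENSRNOG00000010610, chromosome 16), had 1 count in A034 and 0 counts in the other samples. Such low counts were not read as absence of the transcript, since Gnas, a gene in use in most cells that was picked after its values were seen, had at most 19 counts in any sample of the same table.

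The lines differed in 4 of the 6 genes at pH 7.4, beside 10170 of 14777 genes, and in 5 of the 6 at pH 6.0, beside 11155 of 14777 genes. At pH 7.4, 4 of the 6 tested genes were lower in NRK-52E than in NRK-49F cells and 0 were higher, beside 33.9% lower and 35% higher among all tested genes, and the count of higher genes was also 0 at an unadjusted p under 0.05 in edgeR and 0 in DESeq2. Among the 4, Ptger2 passed the filter through NRK-49F cells, so its direction was fixed by how it came to be tested. The log2 difference was -2.60 for Pla2g4a (SE 0.166, edgeR adjusted p = 8.19e-13), -1.59 for Ptgs1 (SE 0.222, adjusted p = 8.21e-07) and -2.58 for Ptgs2 (SE 0.198, adjusted p = 2.71e-11), and no control sample of one line overlapped the other in these genes. For Ptger2, summed over samples, 124 counts in NRK-49F against 2 counts in NRK-52E cells gave a ratio of 61.1 (95% exact interval from 16.6 to 510.2, counting error only). Ptges2 and Ptges3 overlapped between the lines at pH 7.4, with log2 differences of 0.09 (95% interval from -0.25 to 0.43) and 0.09 (-0.10 to 0.28), and without A035 the difference of Ptges2 was -0.08.

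At pH 6.0, 4 of the 6 genes were lower in NRK-52E cells (Ptger2 again among them) and 1 was higher, beside 38.9% lower and 36.6% higher among all tested genes. The log2 difference was -4.58 for Pla2g4a (SE 0.193, edgeR adjusted p = 3.07e-16), -3.31 for Ptgs1 (SE 0.244, adjusted p = 9.98e-12) and -2.56 for Ptgs2 (SE 0.213, adjusted p = 8.79e-11). Ptger2 was at least 9.74-fold lower in NRK-52E cells, with all 6 samples at 0 and 3 counts per library taken as the floor. Ptges3 was the gene that was higher in NRK-52E cells, by 0.82 on the log2 scale (SE 0.0984, edgeR adjusted p = 5.70e-08). In each of these 5 genes no acidotic sample of one line overlapped the other. Ptges2 overlapped, with a log2 difference of 0.12 (95% interval from -0.24 to 0.48), and without A056 the difference was -0.02.

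The position of the genes was taken from the count table and the RefSeq table of GRCr8. Pla2g4a and Ptgs2 both lie on chromosome 13 and are neighbours, with 0 protein-coding genes among the 2 genes listed between them. They differed in NRK-49F cells, where Ptgs2 fell and Pla2g4a had a log2 fold change of 0.02. In the same table, Ptges2, Ptges3, Ptger2 and Ptger4 each overlap a long non-coding RNA gene. Of the genes named below, Abcc4, Akr1b1, Ephx1, Pde4b, Prkaca and Ptgr1 do so too, and Slco2a1 overlaps a pseudogene. These are overlaps of whole gene spans, not of exons. The counting options listed in the methods name none for strand or for reads that overlap several genes. Whether reads of overlapping genes were mixed or lost was not tested.

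Promoter sequences of 8 of the 10 genes were found in a table of RefSeq promoters of GRCr8, which holds none for Ptges2 and Ptgis. The 250 bases before the start of the 4 genes that changed in NRK-52E cells are shown, because 3 of them fell and 1 rose in the same samples. They were searched on both strands for the cyclic AMP response element TGACGTCA and for its part TGACG, for the AP-1 site TGANTCA and the related TTGCATCA, for the C/EBP type of site TTNNGNAA, for the E-box CACGTG, for the CCAAT box and for the TATA box TATAAA, and capitals mark the matches. They lie at chr13:64572353-64572602 on the minus strand for Pla2g4a, chr3:39981169-39981418 on the plus strand for Ptgs1, chr13:64713813-64714062 on the plus strand for Ptgs2 and chr7:1075059-1075308 on the plus strand for Ptges3.
Pla2g4a: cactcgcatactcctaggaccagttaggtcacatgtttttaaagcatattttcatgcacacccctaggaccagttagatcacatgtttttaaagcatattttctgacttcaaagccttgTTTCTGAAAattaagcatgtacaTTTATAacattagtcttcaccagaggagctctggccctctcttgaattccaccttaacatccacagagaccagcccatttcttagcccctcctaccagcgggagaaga
Ptgs1: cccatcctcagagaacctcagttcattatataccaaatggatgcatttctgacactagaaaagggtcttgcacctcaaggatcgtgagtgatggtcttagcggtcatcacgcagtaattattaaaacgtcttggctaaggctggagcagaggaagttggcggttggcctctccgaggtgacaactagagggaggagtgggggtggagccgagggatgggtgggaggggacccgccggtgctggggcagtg
Ptgs2: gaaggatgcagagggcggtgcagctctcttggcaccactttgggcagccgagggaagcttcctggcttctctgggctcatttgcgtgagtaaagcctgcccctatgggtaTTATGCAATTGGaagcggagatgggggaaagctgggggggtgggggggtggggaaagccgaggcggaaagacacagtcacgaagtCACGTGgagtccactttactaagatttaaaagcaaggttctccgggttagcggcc
Ptges3: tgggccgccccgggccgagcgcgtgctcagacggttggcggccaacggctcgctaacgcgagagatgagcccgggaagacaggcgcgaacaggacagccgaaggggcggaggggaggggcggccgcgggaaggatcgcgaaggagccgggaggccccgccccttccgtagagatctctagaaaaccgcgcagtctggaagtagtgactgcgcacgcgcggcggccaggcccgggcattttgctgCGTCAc

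The Ptgs2 promoter held CACGTG, at position -55 from the start, and TTATGCAA (a match of TTNNGNAA) at -140 next to CCAAT on the other strand at -133, with 1 base shared. Among 33469 promoters of the same length, 5.59% held CACGTG, 37.2% held TTNNGNAA and 34.02% held CCAAT. The Pla2g4a promoter held overlapping matches of TTNNGNAA at -131 and -130 and TATAAA on the other strand at -108, a sequence found in 12.9% of the promoters. Ptges3 held TGACG on the other strand at -6 (18.2% of the promoters), and none of the sequences searched was found before Ptgs1. The sequences TGACGTCA, the AP-1 site and TTGCATCA, found in 1.59%, 6.34% and 0.693% of the promoters, were not found in these 4 windows. No sequence searched was shared by the windows of all 3 genes that fell. The GC content was 42.4% for Pla2g4a, 54.4% for Ptgs1, 57.2% for Ptgs2 and 70.4% for Ptges3.

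The genes whose pattern was most like that of each cyclooxygenase were found over the 23 samples among 10056 genes, as log2 FPM centred on the mean of each line. For Ptgs1 they were Tef (Pearson r = 0.973), which encodes a clock-linked transcription factor, Agtrap (0.967), which encodes a protein that binds the angiotensin receptor, and Ca9 (0.962), which encodes a carbonic anhydrase. For Ptgs2 the gene with the highest value was Zhx1 (0.852), which encodes a zinc finger and homeobox protein. These values are descriptions, and the points share the pH groups and sample groups. The genes were picked by their pattern in these samples, so the changes and p-values that follow are descriptions too. Tef and Agtrap changed by -0.53 and -0.81 in NRK-52E cells (edgeR adjusted p = 0.000201 and 3.04e-06) and did not pass in NRK-49F cells (0.14 each, adjusted p = 0.408 and 0.420). Ca9 changed by -1.37 in NRK-52E and 0.76 in NRK-49F cells on the log2 scale (edgeR adjusted p = 6.35e-06 and 0.0117), and Zhx1 by -0.54 and -0.31 (2.95e-05 and 0.0244).

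Other genes of the pathway were taken from 6 lists with 91 genes in all, of which 85 were matched and 59 were tested. In NRK-52E cells 11 of the 59 were higher and 27 were lower at pH 6.0, beside 24.7% and 36.6% of all tested genes, with a median log2 fold change of -0.59 beside -0.12 over all tested genes. These values include 10 genes with at most 3 counts in every sample of a pH group. Without them 11 of 49 were higher and 22 lower, with a median of -0.38. Among all tested genes, reduced in the same way, 3604 of 14138 were higher and 5132 lower, with a median of -0.11. Leaving out genes at such counts also removes genes because they fell to them. Neither the -0.59 nor the -0.38 of the lists is therefore free of low counts or of that choice. In NRK-49F cells 11 of the 59 were higher and 10 were lower, beside 14.5% and 14.4%, with a median of 0.02 beside 0.00 over all tested genes. Of the 10 genes named from the lists and called in NRK-52E cells above 3 counts, 10 were also called in each sample group alone. Among all genes tested there, 8459 of 13782 were called in sample group 1 and 8156 of 13444 in sample group 3. Of the 14 such genes in NRK-49F cells, 4 were called in sample group 4 alone and 8 in sample group 6 alone. None of the 14 had the opposite direction in either. Among all 13812 genes tested there, 1201 were called in sample group 4 and 2205 in sample group 6. The named genes were taken as called in the same samples, so these counts are descriptions and not a separate test.

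For the release of arachidonic acid 15 genes were tested. At pH 6.0 NRK-52E cells had 5 of them higher and 5 lower (61.2% of all tested genes called in either direction), and NRK-49F cells had 5 higher and 3 lower (28.9%). Pla2g4b, another cytosolic phospholipase A2, rose in both lines. In NRK-52E cells it was 10.9 ± 3.83 FPM (SD, n = 6) at pH 7.4 and 30.8 ± 5.71 FPM (SD, n = 6) at pH 6.0, a log2 fold change of 1.49 (SE 0.223, edgeR adjusted p = 3.72e-06). The levels in NRK-49F cells were 9.82 ± 1.72 FPM (SD, n = 6) at pH 7.4 and 23.2 ± 8.54 FPM (SD, n = 5) at pH 6.0, a log2 fold change of 1.24 (SE 0.231, adjusted p = 0.000247). The span of Pla2g4b overlaps those of Jmjd7 and Sptbn5 in the RefSeq table, and whether their reads were mixed was not tested. The change of Pla2g4b was thus opposite to that of Pla2g4a in NRK-52E cells.

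Faah, which encodes the hydrolase that breaks down anandamide to arachidonic acid, fell in NRK-52E cells, with 10.3 ± 1.03 FPM (SD, n = 6) at pH 7.4 and 1.04 ± 0.284 FPM (SD, n = 6) at pH 6.0 (log2 fold change -3.31, SE 0.164, edgeR adjusted p = 8.84e-14). It fell by less in NRK-49F cells (-0.89, SE 0.159, adjusted p = 0.000142). The difference was -2.42 (SE 0.224, adjusted p = 1.33e-08). Of the secreted phospholipases, Pla2g5 rose in NRK-49F cells, with 1.84 ± 0.732 FPM (SD, n = 6) at pH 7.4 and 8.22 ± 3.23 FPM (SD, n = 5) at pH 6.0, a log2 fold change of 2.16 (SE 0.309, adjusted p = 9.44e-06), beside at most 2 counts in any NRK-52E sample. Pla2g2a had a mean of 139.95 FPM in control NRK-49F cells. In NRK-52E cells it had 73 counts in A021, at most 7 counts in the other control samples and at most 1 count at pH 6.0, so A021 held 73 of the 86 counts behind its call as lower in these cells. The spans of Pla2g2a and Pla2g5 overlap on opposite strands in the RefSeq table, and whether their reads were mixed was not tested.

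Of 8 other synthase genes 6 were matched and 2 tested. Akr1b1, an aldose reductase that can make prostaglandin F2alpha, had a mean of 155 FPM in control and 163 FPM in acidotic NRK-52E cells (log2 fold change 0.07, 95% interval from -0.26 to 0.40), which did not pass. In NRK-49F cells it rose, with 271 ± 40.5 FPM (SD, n = 6) at pH 7.4 and 432 ± 149.7 FPM (SD, n = 5) at pH 6.0 (0.67, SE 0.166, edgeR adjusted p = 0.00353). Without A042, which had the highest level of Akr1b1 at 689 FPM, the log2 fold change was 0.44 and passed. It was 1.00 in sample group 4 alone (adjusted p = 0.0605) and 0.39 in sample group 6 alone (0.155), neither past the threshold, in a range of 0.000800 to 0.155 over all alternatives. The RefSeq table names 5 pseudogenes after Akr1b1, whose reads cannot be told apart from it. Ptgds, a prostaglandin D synthase gene, was not called in either line and reached at most 39 counts.

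Of 8 other receptor-related genes 7 were matched and 5 tested, 1 of which (Ptgfrn) encodes a partner of a receptor and not a receptor. All 5 were called lower in NRK-52E cells, beside 36.6% of all tested genes. Of the 5, Ptgfr had 0 to 4 counts in these cells and passed the filter through NRK-49F cells, which leaves 4 genes with levels that can be compared. In NRK-49F cells 3 were lower, beside 14.4%, and none was higher. Ptgdr2 had at most 5 counts in these cells and passed the filter through NRK-52E cells, which also leaves 4 genes there. Ptger1 encodes EP1, a receptor that raises cell calcium. It ranged from 141 to 183 FPM with a median of 164 FPM in control and from 39.3 to 92.3 FPM with a median of 63.6 FPM in acidotic NRK-52E cells. Its level in NRK-49F cells ranged from 68.0 to 82.5 FPM at pH 7.4 and from 19.7 to 32.6 FPM at pH 6.0. In both lines all acidotic samples were below all control samples. The log2 fold change of Ptger1 was -1.31 in NRK-52E (SE 0.168, edgeR adjusted p = 3.86e-07) and -1.41 in NRK-49F cells (SE 0.181, adjusted p = 2.37e-06), and their difference of 0.09 had a 95% interval from -0.40 to 0.59. It passed in each sample group alone, with -0.88, -1.73, -1.57 and -1.30 in sample groups 1, 3, 4 and 6.

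Ptgdr2, which encodes a receptor for prostaglandin D2, ranged from 5.32 to 8.22 FPM in control and from 0.314 to 0.983 FPM in acidotic NRK-52E cells without overlap (log2 fold change -3.44, SE 0.371, edgeR adjusted p = 2.68e-08). It had at most 5 counts in any NRK-49F sample. Tbxa2r, which encodes the thromboxane receptor, ranged from 10.0 to 12.9 FPM in control and from 3.86 to 5.74 FPM in acidotic NRK-52E cells, again without overlap (-1.24, SE 0.215, adjusted p = 2.58e-05). In NRK-49F cells Tbxa2r had 1 to 32 counts, and its log2 fold change of -1.05 (SE 0.314, adjusted p = 0.0134) did not pass in a fit of NRK-49F cells alone (0.0630, in a range of 0.000669 to 0.275 over all alternatives).

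Ptgfr, which encodes the receptor for prostaglandin F2alpha, was a receptor of NRK-49F cells, with a mean of 15.4 ± 3.86 FPM (SD, n = 6) at pH 7.4 and 11.4 ± 2.50 FPM (SD, n = 5) at pH 6.0 (log2 fold change -0.43, 95% interval from -0.91 to 0.04, edgeR adjusted p = 0.165). At pH 6.0 it was at least 77.8-fold lower in NRK-52E cells, whose samples were all at 0. Ptgfrn, which encodes a protein that limits binding to that receptor, fell in both lines, with a log2 fold change of -0.42 in NRK-52E (SE 0.131, adjusted p = 0.00743) and -0.45 in NRK-49F cells (SE 0.137, adjusted p = 0.0156). Without A042 the value in NRK-49F cells was -0.35 and did not pass (0.0559, in a range of 0.00213 to 0.229 over all alternatives). Ptger3 and Ptgir were matched but not tested, with at most 1 and 24 counts.

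**Figure D3:**
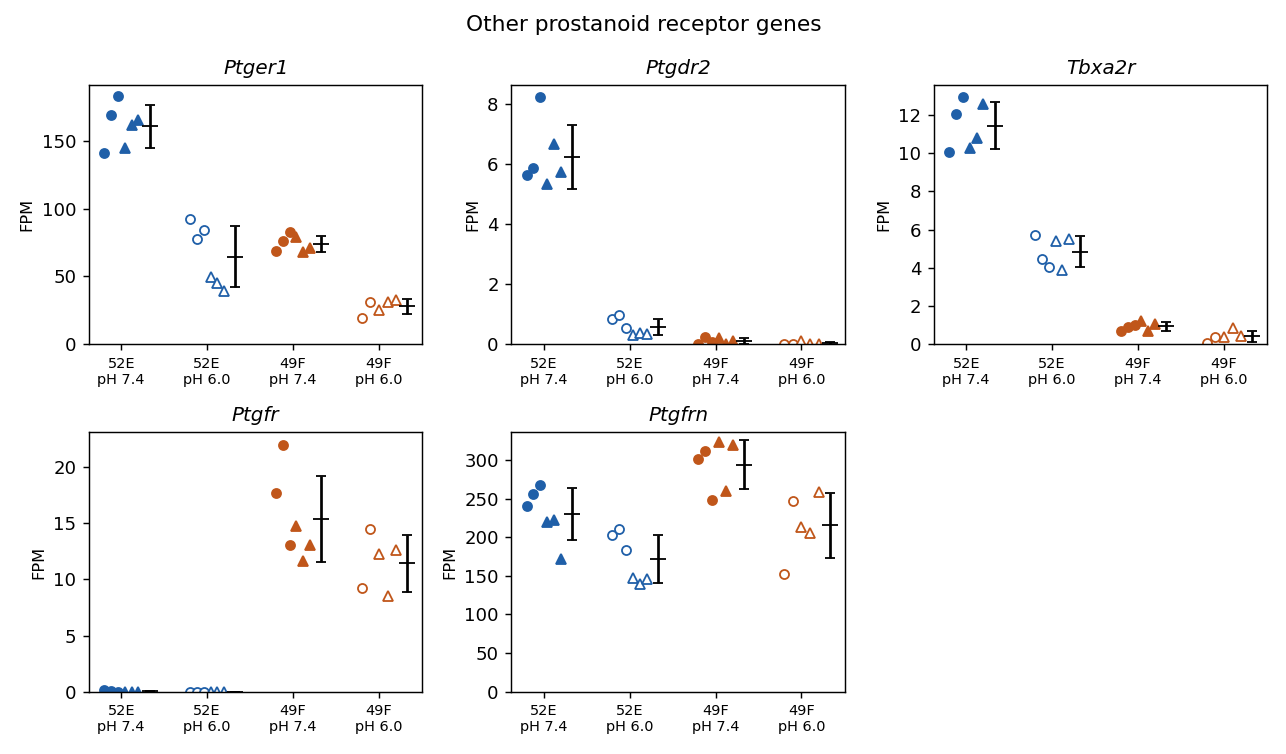
Level in FPM (y axis, from 0) of 5 other receptor-related genes in each sample of NRK-52E (blue) and NRK-49F cells (orange) at pH 7.4 (filled) and pH 6.0 (open), with circles for sample groups 1 and 4, triangles for sample groups 3 and 6, and black marks for the mean and SD of each group. Every pH 6.0 sample of Ptger1 lies below every pH 7.4 sample of the same line, Ptgdr2 and Tbxa2r were mostly found in NRK-52E cells and Ptgfr in NRK-49F cells.

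For transport and breakdown 6 genes were tested. At pH 6.0 NRK-52E cells had 2 of them higher and 1 lower (24.7% and 36.6% of all tested genes), and NRK-49F cells had 3 higher and 1 lower (14.5% and 14.4%). Abcc4, which encodes an exporter of prostaglandins and other organic anions, rose in NRK-52E cells, with 7.78 ± 2.44 FPM (SD, n = 6) at pH 7.4 and 38.2 ± 6.03 FPM (SD, n = 6) at pH 6.0, a log2 fold change of 2.28 (SE 0.239, edgeR adjusted p = 1.68e-08). It also rose in NRK-49F cells, with 44.2 ± 12.8 FPM (SD, n = 6) at pH 7.4 and 86.5 ± 30.2 FPM (SD, n = 5) at pH 6.0, a log2 fold change of 0.97 (SE 0.231, adjusted p = 0.00260), though sample groups 4 (0.96) and 6 (0.97) did not pass alone. The difference was 1.31 (SE 0.329, adjusted p = 0.00249). Slco2a1, which encodes the prostaglandin uptake carrier, had a log2 fold change of 1.06 in NRK-49F cells (SE 0.361, adjusted p = 0.0302), with 11 to 62 counts. Without A039, A054 or A055 it was 0.89, 0.99 or 0.97 and did not pass, and the adjusted p ranged from 0.00507 to 0.283 over all alternatives.

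Ptgr1 and Ptgr2 encode reductases of prostaglandin metabolites, and they showed different patterns. Ptgr1 had at most 5 counts in any NRK-52E sample and rose in NRK-49F cells, with 21.1 ± 3.37 FPM (SD, n = 6) at pH 7.4 and 58.9 ± 22.7 FPM (SD, n = 5) at pH 6.0, a log2 fold change of 1.48 (SE 0.200, edgeR adjusted p = 4.50e-06), with 1.95 in sample group 4 alone and 1.06 in sample group 6 alone. Ptgr2 fell in NRK-52E cells, with 18.4 ± 1.66 FPM (SD, n = 6) at pH 7.4 and 10.1 ± 1.77 FPM (SD, n = 6) at pH 6.0, a log2 fold change of -0.86 (SE 0.107, adjusted p = 2.40e-07). In NRK-49F cells Ptgr2 had a log2 fold change of -0.23 (adjusted p = 0.122), and the difference between the lines was -0.63 (SE 0.153, adjusted p = 0.00189). The RefSeq table names 1 pseudogene after Ptgr2, whose reads cannot be told apart from it.

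In the lipoxygenase and epoxide branches, which use arachidonic acid for other lipid signals, 7 genes were tested. At pH 6.0 NRK-52E cells had 2 of them higher and 3 lower (61.2% of all tested genes called in either direction), and NRK-49F cells had 1 higher and 2 lower (28.9%). Ephx1, which encodes the microsomal epoxide hydrolase, changed in opposite directions. It rose in NRK-52E cells, with 35.7 ± 4.57 FPM (SD, n = 6) at pH 7.4 and 223 ± 101.2 FPM (SD, n = 6) at pH 6.0, a log2 fold change of 2.65 (SE 0.217, edgeR adjusted p = 3.19e-10), with 1.88 in sample group 1 alone and 3.31 in sample group 3 alone. In NRK-49F cells it fell, with 24.9 ± 3.33 FPM (SD, n = 6) at pH 7.4 and 14.7 ± 1.93 FPM (SD, n = 5) at pH 6.0, a log2 fold change of -0.76 (SE 0.225, adjusted p = 0.0130). Sample group 4 alone gave -0.73 and did not pass (edgeR adjusted p = 0.0918), and sample group 6 alone gave -0.79 and passed (0.00631). The difference of Ephx1 between the lines was 3.41 (SE 0.312, adjusted p = 1.13e-08). Ltc4s, which encodes leukotriene C4 synthase, rose in NRK-49F cells, with 1.59 ± 0.320 FPM (SD, n = 6) at pH 7.4 and 3.86 ± 1.46 FPM (SD, n = 5) at pH 6.0, a log2 fold change of 1.27 (SE 0.286, adjusted p = 0.00157). It was called lower in NRK-52E cells at 1 to 10 counts at pH 7.4 and 0 to 2 counts at pH 6.0. The span of Ltc4s overlaps that of Mgat4b on the opposite strand, and whether their reads were mixed was not tested.

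For cyclic AMP signalling, the route that EP2 and EP4 use, 24 of 27 genes were tested. In NRK-52E cells 2 were higher and 13 lower (24.7% and 36.6% of all tested genes, or 61.2% in either direction). In NRK-49F cells 1 was higher and 1 lower (14.5% and 14.4%, or 28.9% in either direction). Prkaca, which encodes a catalytic subunit of protein kinase A, rose in both lines, with a log2 fold change of 0.48 in NRK-52E (SE 0.0659, edgeR adjusted p = 9.53e-07) and 0.28 in NRK-49F cells (SE 0.0687, adjusted p = 0.00375). In NRK-49F cells it did not pass in sample group 4 alone (0.32, adjusted p = 0.189) or sample group 6 alone (0.23, 0.117), in a range of 0.000499 to 0.189 over all alternatives. The span of Prkaca overlaps that of Smim46 in the RefSeq table, and whether their reads were mixed was not tested. The phosphodiesterase genes Pde4b and Pde4c were called lower in NRK-52E cells, where both had at most 8 counts at pH 7.4 and at most 2 counts at pH 6.0. Not all genes of the list that fell in these cells were at such counts. The mean was 26.1 FPM at pH 7.4 and 9.89 FPM at pH 6.0 for Crtc1, and 14.0 and 5.54 FPM for Arrb2. Pde4b fell in NRK-49F cells, with 8.75 ± 2.37 FPM (SD, n = 6) at pH 7.4 and 3.74 ± 1.53 FPM (SD, n = 5) at pH 6.0, a log2 fold change of -1.23 (SE 0.313, adjusted p = 0.00432).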

How the data were processed

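Poly(A) RNA of NRK-52E and NRK-49F cells was sequenced in read pairs. The deposited values are raw counts per Ensembl gene, made by the authors with HISAT2 2.1.0 and featureCounts on exons, multi-mapping reads included, without normalization. The methods give the genome as rn7 and the submitters' processing notes as rn6. The methods list the counting options -p, -M and -t exon and name none for strand. Of the per-sample columns 23 were used, and 13 with no matching sample label were not used.

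All 23 samples were fitted in 1 model with 4 conditions (R 4.3.3, edgeR 4.0.16). Genes were kept by filterByExpr (minimum count 10, minimum total 15), libraries were scaled by TMM, and contrasts were tested by the quasi-likelihood test with Benjamini-Hochberg adjustment over all tested genes (threshold 0.05). The SE is the absolute log2 fold change divided by the square root of F, and intervals are at 95%. FPM came from edgeR's cpm with TMM-scaled library sizes. The script was tested on simulated data.

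The genes and lists were chosen with earlier results of these data known. Named from each list were the 2 genes with the largest absolute change among those called in each line, and all tested receptors and synthases. Nearest patterns were sought for Ptgs1 and Ptgs2 at a mean of 5 FPM or more, with a prior count of 2 for log2 values. No samples of a group agreed within sampling noise (lowest chi-square per gene 5.91). Against the other control NRK-52E samples A035 had values of 48.6 to 89.9, beside 6.71 to 32.8 for the other pairs of that group. A042 had 55.3 to 133.4 against the other acidotic NRK-49F samples, beside 8.07 to 54.7 for the other pairs. A052 had 20.8 to 100.5 against the other control NRK-49F samples, beside 6.19 to 38.6 for the other pairs of that group. Alternatives were RLE and upper quartile scaling, DESeq2 1.42.0, no filter, sample group as a block, each line alone, each sample group alone and leaving out each sample. The test between sample groups was added after seeing the data. Replicate codes are not shared between groups, so comparisons are unpaired. Figures were drawn with matplotlib in Python.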

Additional observations from a re-analysis of the deposited data

Results flagged for a closer look

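Samples far from the others of their group were looked for in 32 groups (8 genes in 4 groups each), by a rule that chance alone meets in about 1 in 20 groups of continuous values. Groups with 0 counts throughout give no value, and 1 sample with counts among samples at 0 always meets the rule, so that rate does not apply to Ptger2 and Hpgd. Ptges2 was 41.998 FPM in A035 of control NRK-52E cells, against 25.5 FPM in the next sample. The others rest on 1 to 11 counts. They are Ptger2 in A033 of control NRK-52E cells (0.0910 FPM, 2 counts), Hpgd in A034 of the same group (0.0545 FPM, 1 count), Ptger4 in A021 of the same group (0.308 FPM), Ptger4 in A037 of acidotic NRK-52E cells (0.331 FPM) and Ptger4 in A043 of acidotic NRK-49F cells (0.610 FPM).

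The change with pH differed between NRK-52E and NRK-49F cells by the test of the difference itself. On the log2 scale, NRK-52E minus NRK-49F, the difference was -1.98 for Pla2g4a, -1.72 for Ptgs1 and 0.73 for Ptges3. Among the named genes of the lists it was -2.42 for Faah, -0.63 for Ptgr2, 1.31 for Abcc4 and 3.41 for Ephx1. For Akr1b1 it was -0.60 (edgeR adjusted p = 0.0405), and it did not pass in 12 of 28 alternatives, among them leaving out A042 (-0.37, adjusted p = 0.121, in a range of 0.0128 to 0.121 over all alternatives).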

How the results depend on the processing

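In NRK-52E cells, at both comparisons of the lines and for the difference, the number of prostaglandin genes called was the same under RLE scaling, upper quartile scaling, DESeq2 and no filter, and when any 1 sample was left out. In NRK-49F cells it was 2 with each line alone (Ptgs1 and Ptgs2) and 0 within sample group 4. The number of all genes called in NRK-49F cells was 1201 in sample group 4 alone and 2205 in sample group 6 alone, where groups held 2 or 3 samples.

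Values near 0 changed sign. The difference of Ptgs2 was -0.0025 with upper quartile scaling and ranged from -0.089 (without A026) to 0.13 (without A052). The change of Pla2g4a in NRK-49F cells was -0.025 with sample group as a block and -0.27 within sample group 4, and ranged from -0.044 (without A056) to 0.090 (without A042). For Ptges2, leaving out 1 sample gave -0.0011 (without A042) to 0.21 (without A056) in NRK-49F cells, and -0.067 (without A056) to 0.20 (without A035) for the difference. For NRK-52E against NRK-49F cells it gave -0.080 (without A035) to 0.17 (without A052) at pH 7.4 and -0.021 (without A056) to 0.24 (without A042) at pH 6.0.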
